A study of Mus musculus with 4 samples.

Results

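The 39 genes described here are cell cycle genes: 12 used for DNA synthesis in S phase, 23 used in G2 and mitosis, and 4 chromatin and microtubule genes that dividing cells carry in large amounts. They were chosen by symbol from the 32285 genes of the count matrices, and all 39 were present. The 12 S-phase genes are Pcna, Mcm2 to Mcm7, Tyms, Rrm1, Rrm2, Pclaf and Tk1. The 23 mitotic genes are Mki67, Top2a, Birc5, Cdk1, Ccna2, Ccnb1, Ccnb2, Ube2c, Cenpa, Cenpe, Cenpf, Nusap1, Tpx2, Aurka, Aurkb, Bub1, Bub1b, Kif11, Kif20a, Cdca3, Cdca8, Cdc20 and Plk1. The other 4 are Stmn1, Hmgb2, H2afz and H2afx.

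The study sequenced single liver leukocytes of IL-22sgBFP mice, a strain in which a blue fluorescent protein reports the cytokine IL-22. CD45+ cells were sorted into an IL-22-BFP negative and an IL-22-BFP positive fraction, from mice before any injection (0 h) and from mice 12 h after MC38 cells, a mouse colon carcinoma line, were injected into the spleen. This gave 4 libraries, 1 per fraction and time, and the genotype is the same in all 4. How many mice each library pools is not stated in the labels, and the groups have no sham-injected control, so the carcinoma cells and the operation cannot be told apart.

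A cell that commits to division makes the MCM helicase, the PCNA clamp and the enzymes that supply nucleotides, then copies its DNA, and then makes the kinases, kinesins and spindle proteins that separate the chromosomes. Genes of the first set are driven mainly by E2F factors at the start of S phase. Genes of the second are controlled by the DREAM, B-MYB and FOXM1 complexes, which act through CHR elements near the gene start. CCAAT boxes often lie there too. Many S-phase proteins are also made at a lower level by cells that do not divide, whereas most mitotic transcripts fall after mitosis ends. Lymphocytes in the liver are mostly resting, and their division is restarted by antigen, cytokines or homeostatic cues.

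Promoter sequences are shown for 5 members because the motifs in them differ in frequency between the S-phase and the mitotic group and the genes are described below. Each is the RefSeq sequence of GRCm38.p6 from 250 bases before to 50 bases after the annotated gene start, in the gene's direction, with every motif match of either strand in capitals. The first 3 are mitotic genes: cyclin B2 (Ccnb2), which activates CDK1; the ubiquitin-conjugating enzyme of the anaphase-promoting complex (Ube2c); and the kinetochore protein CENP-F (Cenpf). The other two are S-phase genes: a subunit of the MCM helicase (Mcm6) and the small subunit of ribonucleotide reductase (Rrm2).
Ccnb2 promoter, chr9:70421505-70421804, minus strand: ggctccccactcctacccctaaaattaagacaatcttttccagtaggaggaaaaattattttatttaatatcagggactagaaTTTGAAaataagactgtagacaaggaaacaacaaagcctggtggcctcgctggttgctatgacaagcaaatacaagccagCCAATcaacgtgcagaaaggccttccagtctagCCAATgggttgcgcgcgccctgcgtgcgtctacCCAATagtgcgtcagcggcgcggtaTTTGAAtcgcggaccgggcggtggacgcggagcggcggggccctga
Ube2c promoter, chr2:164769679-164769978, plus strand: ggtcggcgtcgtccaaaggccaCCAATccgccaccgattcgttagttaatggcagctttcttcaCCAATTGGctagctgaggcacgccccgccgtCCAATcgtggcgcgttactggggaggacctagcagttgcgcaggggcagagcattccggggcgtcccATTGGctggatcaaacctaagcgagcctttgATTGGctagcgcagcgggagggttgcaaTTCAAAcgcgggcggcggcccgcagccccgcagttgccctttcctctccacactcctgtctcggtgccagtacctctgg
Cenpf promoter, chr1:189688037-189688336, minus strand: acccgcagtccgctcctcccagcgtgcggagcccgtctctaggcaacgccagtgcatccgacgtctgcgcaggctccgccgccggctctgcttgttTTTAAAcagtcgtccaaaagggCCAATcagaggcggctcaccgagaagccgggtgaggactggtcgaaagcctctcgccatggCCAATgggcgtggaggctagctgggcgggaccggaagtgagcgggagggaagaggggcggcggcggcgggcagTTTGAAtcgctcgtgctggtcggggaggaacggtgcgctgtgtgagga
Mcm6 promoter, chr1:128359656-128359955, minus strand: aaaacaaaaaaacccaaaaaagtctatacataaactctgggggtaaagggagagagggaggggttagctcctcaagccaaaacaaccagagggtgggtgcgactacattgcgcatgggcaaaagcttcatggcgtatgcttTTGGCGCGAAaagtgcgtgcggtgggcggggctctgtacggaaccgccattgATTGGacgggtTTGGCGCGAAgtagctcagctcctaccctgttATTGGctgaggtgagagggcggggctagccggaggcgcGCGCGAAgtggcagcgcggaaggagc
Rrm2 promoter, chr12:24708004-24708303, plus strand: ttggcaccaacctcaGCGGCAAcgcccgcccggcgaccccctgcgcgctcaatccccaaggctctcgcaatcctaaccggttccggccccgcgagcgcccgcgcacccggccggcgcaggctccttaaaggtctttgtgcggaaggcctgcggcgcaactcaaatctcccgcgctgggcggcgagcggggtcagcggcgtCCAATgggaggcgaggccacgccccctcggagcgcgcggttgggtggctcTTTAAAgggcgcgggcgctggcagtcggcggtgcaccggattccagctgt

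Motifs were searched on both strands. The CHR was taken as TTTGAA, with TTTAAA as its other form, and the CCAAT box as the letters of its name. The E2F site was taken as TTCCCGC, as the form TTGGCGC with changed inner bases, as the form TTCGCGC, and as a last form TTGCCGC. In the Ccnb2 promoter a CHR starts 4 bases after the gene start, with CCAAT boxes 21, 54 and 87 bases before it. The Mcm6 promoter holds 5 E2F matches, which overlap in 2 pairs, and no CHR. The Rrm2 promoter, although of an S-phase gene, has a CHR at the gene start and a CCAAT box 50 bases before it, and its 1 E2F match lies 235 bases before the start. RefSeq promoters were matched for 32 of the 39 members, 1 of them (H2afz) under another symbol, and Mcm4, Ccna2, Tpx2, Aurkb, Kif20a, Stmn1 and H2afx were not matched.

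A CHR was present in 17 of the 19 mitotic promoters (89.5%), in 5 of the 11 S-phase promoters (45.5%) and in 27.8% of all 27025 promoters of this length. CCAAT boxes were present in 17 of 19 (89.5%) and 9 of 11 (81.8%), against 37.9% of all promoters. E2F matches showed the other order, with 7 of the 11 S-phase promoters (63.6%), 3 of the 19 mitotic promoters (15.8%) and 9.69% of all. The CHR lay within 50 bases of the start in 15 mitotic promoters (78.9%) and in 2 S-phase promoters (18.2%), against 8.24% of all promoters. Birc5, which encodes survivin of the chromosomal passenger complex, had its CHR match 220 bases before the start and no CCAAT box. Nusap1 and Tyms had none of these letters in the window. A match is a description of the sequence and not a binding site.

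**Figure D1:**
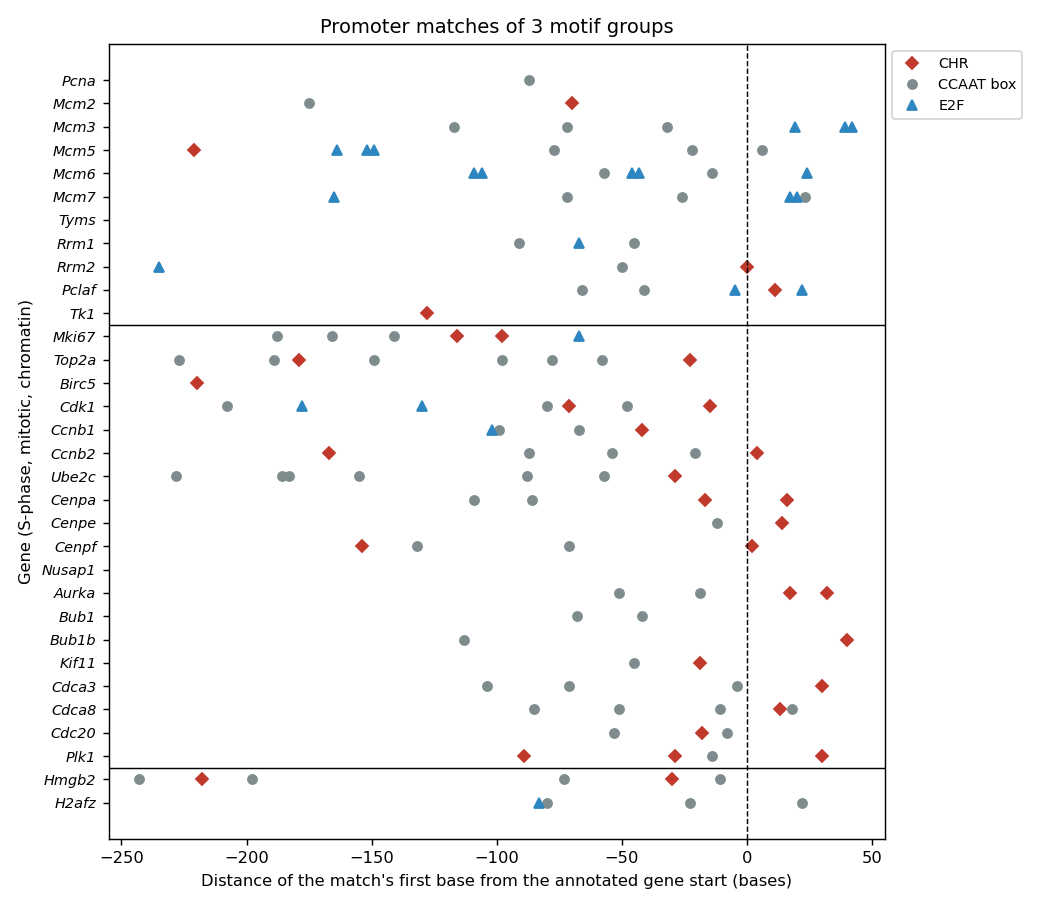
Each line is 1 of the 32 members with a RefSeq promoter, and the x axis is the distance in bases of each motif match from the annotated gene start (dashed line). Red diamonds are CHR matches, grey circles CCAAT boxes and blue triangles E2F matches; the diamonds of 15 of the 19 mitotic genes lie within 50 bases of the start, and the triangles lie mostly in the S-phase block at the top.

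The matrices hold 8555 barcodes of IL-22-negative cells before the injection and 10231 after it, and 300 and 1378 of IL-22-positive cells. After a filter and removal of predicted doublets, 8002, 9635, 288 and 1348 cells remained, with median depths of 1797.5, 2167, 3386 and 3715.5 UMIs per cell, a UMI being 1 captured transcript. Barcodes shared by more than 1 library numbered 151, of which 116 were shared by both IL-22-negative libraries. Cells were clustered without any cell cycle or histone gene, so that the classes do not depend on the members, and a class name ending in "-like" rests on marker genes. With 1 library per group no comparison has a replicate check and no p-value is given. Intervals are exact 95% intervals of counting error, and they are too narrow for genes whose UMIs sit in few cells. Levels are CPM, the UMIs of a gene per 1000000 UMIs of the class in a library.

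The members' UMIs were unevenly spread over the 19273 cells. Of all cells, 369 (1.91%) had UMIs of 3 or more of the 23 mitotic genes, 306 cells had exactly 2 and 54 exactly 3. This count is a range and not a cell type. Cells with 3 or more mitotic genes had a median of 6581 UMIs, against 1994 for the 15924 cells with none, and the part of depth in this was not tested. After every cell was thinned to 1000 UMIs, 188 cells (1.13%) still had 3 or more.

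For each gene, the cells with 3 or more other mitotic genes held 93.7% of the Birc5 UMIs, 90.5% of those of Ccnb2 and 88.5% of those of Ube2c. Cenpa, the centromeric histone variant, and Aurka, a spindle pole kinase, had 40.9% and 44.2% of their UMIs there. Among S-phase genes the range was wider. Pclaf, a PCNA-binding factor, had 88.3% of its UMIs in these cells, Rrm2 79.4%, thymidine kinase (Tk1) 75.4% and thymidylate synthase (Tyms) 56.1%. The helicase subunits Mcm2 to Mcm7 had between 14.6% (Mcm4) and 29.1% (Mcm5), and the clamp Pcna had 13.8%. The last named genes were thus counted mostly in cells without a mitotic set: 10.6% of the cells with no other mitotic gene had a Pcna UMI, against 0.829% for Pclaf. Of the chromatin genes, H2afz, a histone H2A variant, was found in 57.2% of the cells with no mitotic gene and Hmgb2, a DNA-bending protein, in 47.9%.

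**Figure D2:**
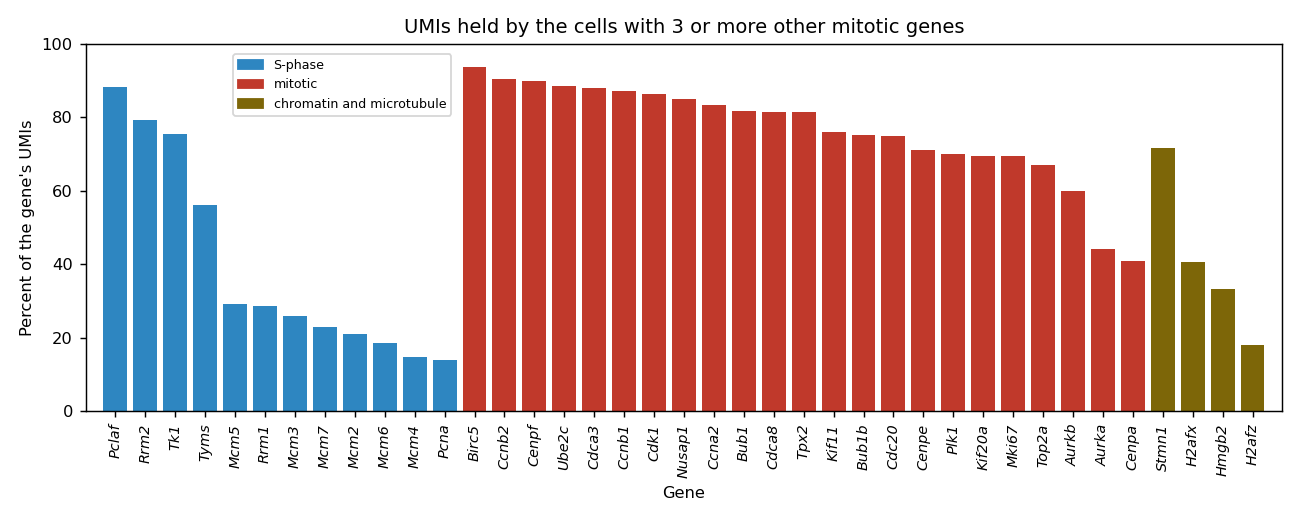
Bars give, for each of the 39 genes (x axis, by role), the percent of its UMIs over all 4 libraries that lay in cells with 3 or more other mitotic genes. Birc5 stands at 93.7% and Pcna at 13.8%, and the S-phase genes split into Pclaf, Rrm2, Tk1 and Tyms above 50% and the MCM genes, Rrm1 and Pcna below 30%.

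S-phase and mitotic genes were detected together. Of the 369 cells with 3 or more mitotic genes, 62.3% also had 3 or more S-phase genes, against 1.12% of the cells with no mitotic gene. In cells thinned to 1000 UMIs these shares were 24.5% and 0.218%.

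In the IL-22-negative libraries, the share of cells with 3 or more mitotic genes was 1.60% at 0 h (128 cells, interval 1.34% to 1.90%) and 2.46% at 12 h (237 cells, 2.16% to 2.79%). Thinned to 1000 UMIs, the shares were 0.876% and 1.48%. T-cell-like cells made up 43.8% of these cells at 0 h and 53.2% at 12 h. A T cell cluster with few UMIs per cell, kept apart from this class, held another 14.8% (19 cells) and 3.38% (8 cells), and with it T cells made up 58.6% and 56.5%. Plasma-cell-like cells had the highest share among the classes with 50 or more cells, 19.6% (19 of 97) and 18.3% (26 of 142), at median depths of 11317 and 12069 UMIs. Thinned, their shares were 7.53% and 4.96%. B-cell-like cells were low, with 0.339% (7 of 2065) and 0.740% (14 of 1892). Monocyte-like cells had 0 of 144 at 0 h, which allows a share of up to 2.08%, and 2 of 578 (0.346%) at 12 h.

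**Figure D3:**
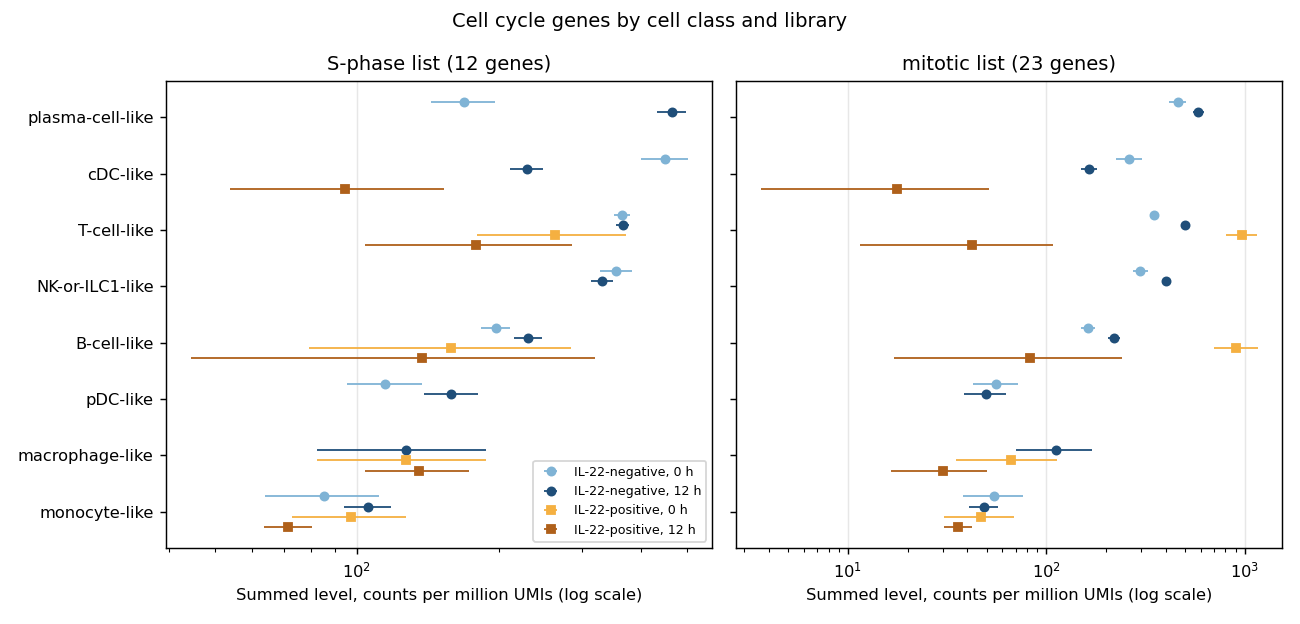
Points give the summed CPM (log axis) of the 12 S-phase genes (left) and the 23 mitotic genes (right) per cell class and library, with exact 95% Poisson intervals as lines. From 0 h to 12 h (light to dark blue) the plasma-cell-like S-phase sum goes from 169 to 465 CPM and the cDC-like one from 449 to 230 CPM, while the T-cell-like mitotic sum goes from 351 to 503 CPM.

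T-cell-like cells were the largest class, with 2508 cells at 0 h and 3784 at 12 h in the IL-22-negative libraries. A gene counts as higher or lower where its CPM changed at least 1.5-fold, its interval leaves out 1, and the sums held 20 or more UMIs. Of the 10796 genes measured in this class, 2.07% were higher at 12 h and 4.06% lower. Of the 23 mitotic genes 8 were higher and none lower, and of the 12 S-phase genes 1 was higher and none lower. The median log2 ratio was 0.45 for the mitotic genes and -0.04 for the S-phase genes, beside -0.05 for all genes measured. The summed mitotic level was 351 CPM at 0 h and 503 CPM at 12 h, a ratio of 1.43 (1.36 to 1.5). The summed S-phase level was 365 and 366 CPM, a ratio of 1.00 (0.954 to 1.06). A summed level does not tell more cells with a transcript from more transcripts per cell.

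The S-phase genes of T-cell-like cells differed among themselves. The 6 helicase genes were all at or below their 0 h level without passing the rule: Mcm4 had 55.6 and 45.9 CPM (ratio 0.826, interval 0.720 to 0.948), Mcm6 41.1 and 33.8 CPM (0.822, 0.701 to 0.966), and Mcm5 11.6 and 11.5 CPM. Pcna stood at 55.8 and 58.4 CPM and Tyms at 31.2 and 30.8 CPM. Rrm2 was the S-phase gene that passed, with 65 UMIs (9.58 CPM) at 0 h and 150 UMIs (14.5 CPM) at 12 h, 1.51-fold (1.12 to 2.06). The other S-phase genes with over 50% of their UMIs in cells with mitotic genes did not pass: Pclaf and Tk1 had ratios of 1.23 (1.09 to 1.39) and 1.36 (1.07 to 1.75), and Tyms had the nearly equal levels given above.

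The 8 mitotic genes that were higher at 12 h in T-cell-like cells act from G2 to anaphase. All 23 were chosen as genes used in G2 and mitosis, so this does not set the 8 apart. Among them, Cdc20 had under 20 UMIs at 0 h and reached that number only through 12 h. Ccnb2 had 74 UMIs (10.9 CPM) at 0 h and 211 UMIs (20.4 CPM) at 12 h, 1.87-fold (1.43 to 2.47). Ube2c had 325 UMIs (47.9 CPM) and 899 UMIs (86.8 CPM), 1.81-fold (1.60 to 2.06). These are regulators of mitotic entry and exit, as is Cdc20, an activator of the anaphase-promoting complex, which had 16 and 55 UMIs, 2.25-fold (1.27 to 4.21). Cenpf, at the kinetochore, had 97 UMIs (14.3 CPM) and 292 UMIs (28.2 CPM), 1.97-fold (1.56 to 2.51). Tpx2, which builds the spindle with Aurora A, had 65 UMIs (9.58 CPM) and 186 UMIs (18.0 CPM), 1.88-fold (1.41 to 2.53). Bub1b, of the spindle checkpoint, had 23 and 61 UMIs, 1.74-fold (1.06 to 2.94). The passenger complex genes Birc5 and Cdca8 had ratios of 1.66 (1.44 to 1.92; 39.8 and 66.1 CPM) and 1.51 (1.22 to 1.89; 18.1 and 27.4 CPM).

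The mitotic genes most used as proliferation markers did not pass in T-cell-like cells. Mki67, which coats mitotic chromosomes, had 27.9 CPM at 0 h and 32.0 CPM at 12 h, a ratio of 1.15 (0.957 to 1.38). Top2a, the topoisomerase that untangles sister DNA, had 45.8 and 49.3 CPM (1.07, 0.932 to 1.24), and Cdk1 12.4 and 14.8 CPM (1.19, 0.909 to 1.58). Both Mki67 and Top2a are made from S phase on. The other 12 mitotic genes, among them Ccnb1, Plk1, Aurkb, Bub1 and Kif11, are G2 and mitosis genes too. Their ratios ran from 0.754 (Aurka, 20 and 23 UMIs) to 1.90 (Kif20a, 10 and 29 UMIs), and none passed. The 23 genes together had 20 ratios above 1.

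**Figure D4:**
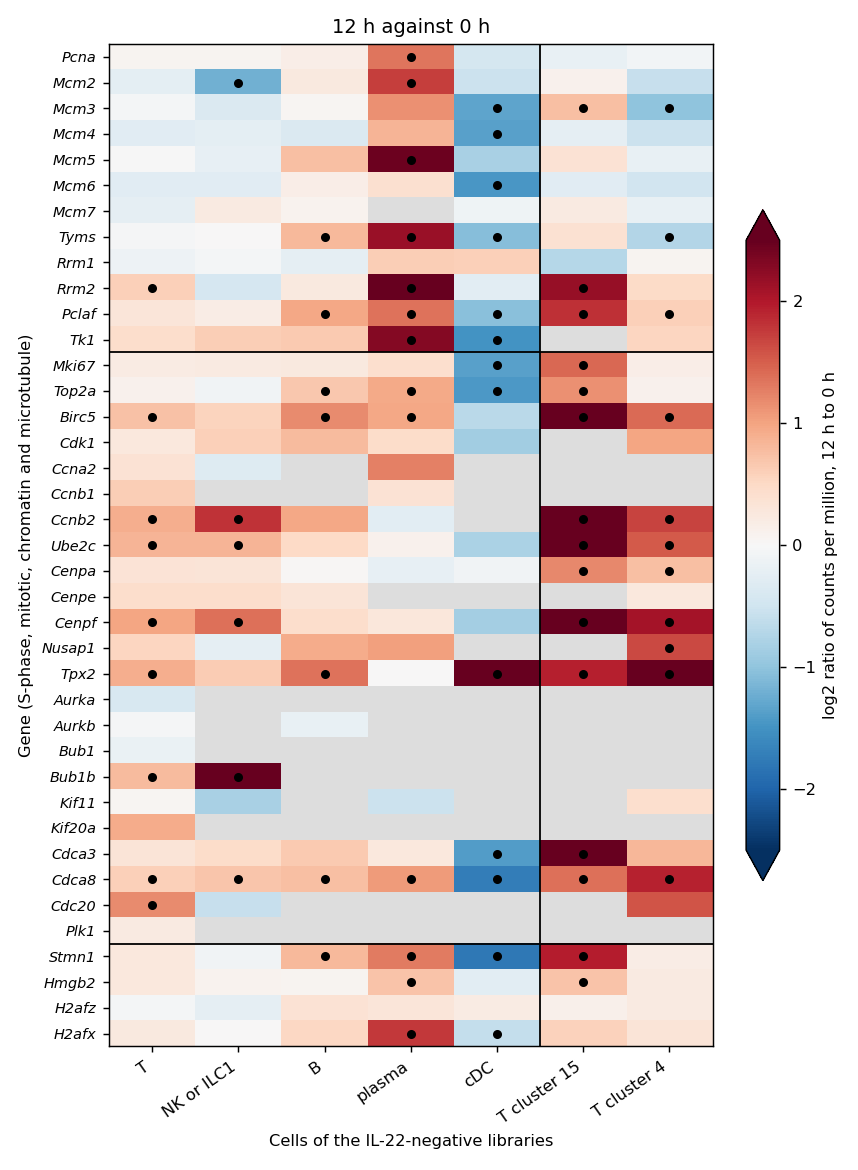
Colours give the log2 ratio of CPM at 12 h to 0 h for each member (lines, by role) in cells of the IL-22-negative libraries (columns; the last 2 are single T cell clusters), and grey means under 20 UMIs in the sums. Black dots mark genes that changed at least 1.5-fold with a counting interval that leaves out 1: the T column has 9 dots, 8 of them mitotic, while the plasma column has dots mainly among S-phase genes and the cDC column is mostly blue.

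The share of T-cell-like cells with a UMI separates the members further. Birc5 was found in 2.31% of the cells at 0 h (58 cells) and 3.41% at 12 h (129 cells), at median depths of 2439.5 and 2339.5 UMIs, and in 1.29% and 2.06% after thinning to 1000 UMIs. In B-cell-like cells, most of which rest, it was found in 0.726% and 0.846% (median depths 1717 and 1598 UMIs), and thinned in 0.494% and 0.444%. Ube2c was found in 2.83% and 4.10% of T-cell-like cells, thinned 1.5% and 2.19%, against thinned shares of 0.840% and 0.444% in B-cell-like cells.

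Pcna, in contrast, was found in 12.6% and 12.8% of T-cell-like cells. Its thinned shares were 5.20% and 5.17%, beside 3.50% and 5.22% in monocyte-like cells, of which few had mitotic genes. At 12 h the T-cell-like share of Pcna was thus no higher than that of a class with almost no mitotic set. Mki67 had thinned shares of 1.5% and 1.38% in T-cell-like cells and 0.691% and 0.499% in B-cell-like cells.

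T-cell-like cells with 3 or more mitotic genes numbered 56 (2.23%, interval 1.69% to 2.89%) at 0 h and 126 (3.33%, 2.78% to 3.95%) at 12 h, a ratio of shares of 1.49 (1.08 to 2.08). Exactly 2 mitotic genes were found in 55 (2.19%) and 51 cells (1.35%), a ratio of 0.615 (0.412 to 0.916). With 2 or more genes as the limit the shares were 4.43% and 4.68%, a ratio of 1.06 (0.829 to 1.35), so at these depths the higher share at 12 h holds at 3 or more genes and not at 2 or more. Thinned to 1000 UMIs, the shares were 1.12% and 2.17%, a ratio of 1.93 (1.23 to 3.10). In the T cell cluster with few UMIs, 19 of 1350 cells (1.41%) and 8 of 401 (2.0%) had 3 or more, a ratio of 1.42 (0.537 to 3.39), and with this cluster joined to the class the shares were 1.94% and 3.20%, a ratio of 1.65 (1.23 to 2.22). The cells of the T-cell-like class with 3 or more mitotic genes carried the T cell markers of their class: the 10 markers summed to 4518 CPM at 0 h and 4253 CPM at 12 h, against 4689 and 4641 CPM in all T-cell-like cells. The 8 epithelial markers summed to 0 UMIs at 0 h and 7 UMIs at 12 h in them, with 5 of the 8 markers at 0 at 12 h. Whether the injected carcinoma cells carry these markers was not tested.

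The cells fell into 3 sets by the genes they held. Those with 3 or more S-phase but fewer mitotic genes numbered 69 at 0 h (2.75%) and 69 at 12 h (1.82%), a ratio of shares of 0.663 (0.468 to 0.939). Cells with 3 or more of both numbered 41 (1.63%) and 84 (2.22%), with a ratio of 1.36 (0.924 to 2.02). Cells with 3 or more mitotic but fewer S-phase genes numbered 15 (0.598%) and 42 (1.11%), with a ratio of 1.86 (1.01 to 3.60). The last ratio was 2.35 (1.38 to 4.21) at 1000 UMIs and 2.05 (1.11 to 3.98) at 3000 UMIs per cell. The first was 0.887 (0.381 to 2.14) at 1000 UMIs and 0.824 (0.497 to 1.37) at 3000 UMIs, so the decrease of the S-phase set was not detectable at matched depth.

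Within the cells that had 3 or more mitotic genes, which that count selected, the CPM of 15 of the 23 mitotic genes was higher at 12 h and that of 10 of the 12 S-phase genes lower. Ccnb2 stood at 162 CPM at 0 h and 241 CPM at 12 h in them, Cenpf at 221 and 332 CPM, Tpx2 at 133 and 201 CPM, and Ube2c at 714 and 973 CPM. Mki67 stood at 349 and 332 CPM and Top2a at 508 and 471 CPM, both among the 8 mitotic genes that were lower. The rest of the 8 were Cdk1, Aurka (29.5 and 21.1 CPM), Aurkb (46.7 and 31.6 CPM), Bub1, Kif11 (95.8 and 74.9 CPM) and Plk1. Mcm2 stood at 46.7 and 29.2 CPM, Mcm6 at 133 and 87.7 CPM, and Mcm7 at 95.8 and 58.5 CPM, while Pcna (138 and 157 CPM) and Rrm2 (120 and 153 CPM) were higher. These values describe 56 and 126 cells. No share over all genes is given beside the counts of higher and lower genes, so they are a description.

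Clusters of T-cell-like cells differed in level more than the libraries did. At 0 h, 18 of the 164 cells (11.0%) of cluster 12, led by Gzmk, Cd8b1 and Cd8a, had 3 or more mitotic genes, and at 12 h 23 of 219 (10.5%) did. Cluster 2, led by Tnfrsf4, Areg and Icos, had 28 of 575 (4.87%) and 42 of 644 (6.52%). Cluster 3, led by Ly6c1, Igfbp4 and Lef1, had 2 of 313 (0.639%) and 2 of 384 (0.521%). In cluster 12, 5 of 17 mitotic genes were higher at 12 h, 3 of them with under 20 UMIs at 0 h (2.76% of all genes measured were higher and 3.97% lower), and the summed mitotic level was 1289 and 1633 CPM, a ratio of 1.27 (1.15 to 1.40). Cluster 2 had none of 21 higher and none lower (1.86% and 6.82% of all genes), with 876 and 1030 CPM, a ratio of 1.18 (1.09 to 1.26).

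The low clusters 15 and 4 had the larger ratios. Cluster 15, led by Dapl1, Cd8b1 and Cd8a with Lef1 and Tcf7, which naive T cells express, had 1 of 677 cells (0.148%) with 3 or more mitotic genes at 0 h and 23 of 849 (2.71%) at 12 h. The ratio was 18.3, with an interval of 2.98 to 756 because it rests on that 1 cell, and thinned to 1000 UMIs there were 0 of 671 and 12 of 836 cells. The mitotic sum went from 55.7 to 223 CPM, a ratio of 4.01 (3.31 to 4.89). Of the 23 mitotic genes 10 had 20 or more UMIs in the sums and were higher (2.57% of all genes measured were higher and 2.52% lower), but 8 of the 10 had fewer than 20 UMIs at 0 h and reached that number only through 12 h, so this count supports nothing. Both genes with 20 or more UMIs at 0 h were among them: Top2a, with 22 and 61 UMIs, and Cenpa, with 43 and 123 UMIs. Birc5 had 6 UMIs in 5 cells at 0 h and 88 UMIs in 20 cells at 12 h, 11.8-fold (5.19 to 32.9). Ube2c had 3 and 89 UMIs, 23.8-fold (7.88 to 118), and Ccnb2 had 1 and 36 UMIs, 28.9-fold (4.86 to 1171). The 13 other mitotic genes had under 20 UMIs in the sums.

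In cluster 15, S-phase genes were nearly level in sum, at 189 and 212 CPM (ratio 1.12, 0.989 to 1.27). Of 11 measured, Rrm2, Pclaf and Mcm3 were higher, with ratios of 4.54 (1.31 to 24.2), 3.55 (1.97 to 6.87) and 1.68 (1.09 to 2.64). Rrm2 and Pclaf had under 20 UMIs at 0 h and were measured only through 12 h, so the count is a description. Stmn1, a tubulin-binding protein, had 27 and 132 UMIs, 3.92-fold (2.58 to 6.17). Cells with mitotic but few S-phase genes numbered 0 of 677 at 0 h, which allows up to 0.443%, and 14 of 849 (1.65%) at 12 h. The 23 cells of 12 h held Cd8b1 at 1155 CPM and Cd3e at 541 CPM, against 1191 and 601 CPM in the 716 cells of the cluster with no mitotic gene. Lef1 stood at 116 CPM in them, against 253 CPM.

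Cluster 4, led by Cd40lg, Cxcr6 and Tcrg-C1 with Zbtb16, the factor of innate-like T cells, had 7 of 751 cells (0.932%) with 3 or more mitotic genes at 0 h and 32 of 1467 (2.18%) at 12 h, a ratio of 2.34 (1.01 to 6.28). Of 15 mitotic genes 8 were higher (1.32% of all genes were), 5 of them with under 20 UMIs at 0 h, among them Cenpf with 13 and 106 UMIs, 4.25-fold (2.38 to 8.25), and Nusap1, a spindle-binding protein, with 7 and 42 UMIs. The mitotic sum was 168 and 354 CPM, a ratio of 2.11 (1.86 to 2.39). Its S-phase sum was 342 and 293 CPM, a ratio of 0.857 (0.776 to 0.948). Mcm3, with 60 and 57 UMIs, and Tyms, with 50 and 58 UMIs, were lower at 0.496-fold (0.339 to 0.725) and 0.605-fold (0.407 to 0.902), and Pclaf was higher (4.81% of all genes were lower). Cells with S-phase but few mitotic genes were 31 of 751 (4.13%) and 18 of 1467 (1.23%), a ratio of 0.297 (0.157 to 0.548), and 0.434 (0.182 to 0.997) at 3000 UMIs per cell. At 1000 UMIs per cell 3 of 714 and 1 of 1438 such cells were left, a ratio of 0.166 (0.00315 to 2.06), too few to compare. The ratios of both clusters rest on cells that gather in 1 cluster when cell cycle genes are kept for clustering: 19 of the 23 cells of cluster 15 with 3 or more mitotic genes at 12 h went there, as did 6 of the 7 and 25 of the 32 cells of cluster 4. Without the cells of that cluster, which cell cycle genes helped to form, the mitotic ratio was 1.02 (0.792 to 1.31) in cluster 15 and 0.781 (0.630 to 0.970) in cluster 4. Whether the ratios of clusters 4 and 15 differ from those of clusters 2 and 12 was not tested, as there is 1 library per time.

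**Figure D5:**
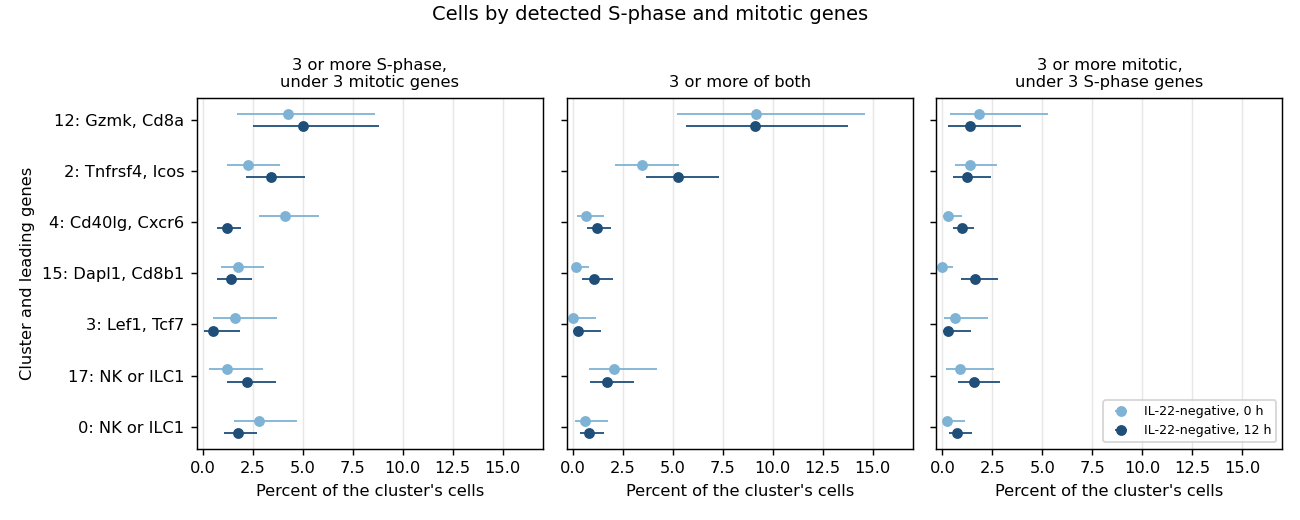
Points give the percent of each cluster's cells (y axis, with leading genes) in the IL-22-negative libraries that had 3 or more S-phase genes with under 3 mitotic genes (left), 3 or more of both (middle), or 3 or more mitotic with under 3 S-phase genes (right), with exact 95% binomial intervals. Cluster 4 goes from 4.13% to 1.23% on the left, and cluster 15 from 0 to 1.65% on the right.

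NK-or-ILC1-like cells, 833 at 0 h and 1716 at 12 h, had 3 or more mitotic genes in 14 (1.68%) and 38 cells (2.21%), a ratio of 1.32 (0.698 to 2.63). Of 17 mitotic genes 5 were higher at 12 h and none lower, where 1.13% of the 9133 genes measured were higher and 4.6% lower. Of these 5, Ccnb2 and Bub1b had fewer UMIs at 0 h than the rule asks of the sums. They were measured only through 12 h, so the count is a description. Cenpf had 21 UMIs in 8 cells at 0 h and 114 UMIs in 30 cells at 12 h, 2.60-fold (1.63 to 4.37). Ccnb2 had 8 and 58 UMIs, 3.48-fold (1.65 to 8.44), Bub1b 2 and 24 UMIs, 5.76-fold (1.43 to 50.3), Ube2c 72 and 269 UMIs, 1.79-fold (1.38 to 2.36), and Cdca8 25 and 84 UMIs, 1.61-fold (1.02 to 2.63). All 5 are among the 8 mitotic genes that passed in T-cell-like cells. The share of all genes that passed in both classes is not given, so this overlap is a description. Mcm2 was the 1 S-phase gene of 12 that passed, and it was lower, with 21.9 and 9.50 CPM (0.433-fold, 0.27 to 0.692). The mitotic sum was 298 and 402 CPM (1.35, 1.22 to 1.49) and the S-phase sum 354 and 331 CPM (0.934, 0.850 to 1.03).

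The NK result depends on how cells are assigned. When cell cycle genes were kept for clustering, 8 of the 14 and 27 of the 38 NK-or-ILC1-like cells with 3 or more mitotic genes went to a cycling cluster that was named T-cell-like, and the mitotic ratio of the remaining NK-or-ILC1-like cells was 0.886. The NK marker list stood at 19012 and 18107 CPM in the cells with 3 or more mitotic genes, against 22568 and 22089 CPM in the whole class. Of its clusters, 17 (led by Klra8, Klra4 and Cma1) had the larger mitotic ratio, 1.69 (1.47 to 1.94), with 7 of 15 genes higher, 4 of them with under 20 UMIs at 0 h, and none lower (2.08% and 3.68% of all genes). Cluster 0 (led by Gzmc, Xcl1 and Cd7) had a ratio of 1.07 (0.933 to 1.24), with 1 of 11 higher and 1 lower (1.01% and 5.34% of all genes).

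B-cell-like cells had low sums that were higher at 12 h for both lists. The mitotic sum was 163 CPM at 0 h and 219 CPM at 12 h (1.35, 1.21 to 1.5), and the S-phase sum 197 and 231 CPM (1.17, 1.06 to 1.29). Of 14 mitotic genes Top2a, Birc5, Tpx2 and Cdca8 were higher, and of 12 S-phase genes Tyms and Pclaf, where 1.48% of the 9381 genes measured were higher and 5.14% lower. Tpx2 had under 20 UMIs at 0 h and was measured only through 12 h, so the mitotic count is a description. Pclaf had 82 UMIs in 32 cells at 0 h and 149 UMIs in 18 cells at 12 h, 1.95-fold (1.48 to 2.59), and Birc5 28 UMIs in 15 cells and 59 UMIs in 16 cells, 2.26-fold (1.42 to 3.69). The higher UMI counts of these 2 genes came from about as many or fewer cells. Without the cell with most Top2a UMIs in each library its ratio was 1.41, under the 1.5-fold of the rule. Cells with 3 or more S-phase genes numbered 9 of 2065 (0.436%) and 24 of 1892 (1.27%), a ratio of 2.91 (1.31 to 7.12). With predicted doublets kept, the S-phase ratio was 1.03 and the mitotic ratio 1.18, and with cell cycle genes kept for clustering they were 0.881 and 0.809.

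Plasma-cell-like cells, antibody-secreting cells that include dividing plasmablasts, differed between the times mainly in S-phase genes. The S-phase sum was 169 CPM at 0 h (164 UMIs, 97 cells) and 465 CPM at 12 h (789 UMIs, 142 cells), 2.76-fold (2.33 to 3.28). Of 11 S-phase genes 7 were higher and none lower, where 5.78% of the 5245 genes measured were higher and 5.7% lower. Of these 7, 6 had under 20 UMIs at 0 h and were measured only through 12 h, so the count is a description; Pclaf was the 1 gene with 20 or more UMIs at both times. Rrm2 had 2 UMIs in 2 cells at 0 h and 71 UMIs in 23 cells at 12 h, 20.3-fold (5.43 to 171). Tk1 had 5 and 43 UMIs, 4.93-fold (1.96 to 15.9), and Tyms 8 UMIs in 7 cells and 62 UMIs in 33 cells, 4.44-fold (2.12 to 10.7); these enzymes feed the nucleotide supply, as Rrm2 does. Mcm5 had 2 and 19 UMIs, 5.44-fold (1.31 to 48.2), Mcm2 5 and 29 UMIs, 3.32-fold (1.27 to 11.0), Pcna 14 and 62 UMIs, 2.54-fold (1.41 to 4.91), and Pclaf 80 and 359 UMIs, 2.57-fold (2.01 to 3.32). Pclaf gave 80 of the 164 S-phase UMIs at 0 h and 359 of the 789 at 12 h. It was found in 21 of 97 cells (21.6%) and 35 of 142 (24.6%), and Pcna in 14.4% and 25.4% of the cells. Mcm4 was found in 9.28% and 10.6%, and Mcm6 in 17.5% and 16.2%.

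The mitotic genes of plasma-cell-like cells had a sum of 459 CPM at 0 h and 584 CPM at 12 h (1.27, 1.14 to 1.43), and 3 of 15 were higher: Top2a, 1.94-fold (1.24 to 3.13), Birc5, 1.95-fold (1.34 to 2.90), and Cdca8, 2.10-fold (1.09 to 4.37). Of all genes measured in this class 5.78% were higher. Cdca8 had 12 UMIs at 0 h and 44 UMIs at 12 h and was measured only through 12 h, so the count is a description. Ube2c stood at 115 and 124 CPM and Mki67 at 51.4 and 68.9 CPM. Without the 1 cell with most mitotic UMIs in each library the ratio was 1.53. By sets, cells with S-phase and mitotic genes numbered 7 of 97 and 19 of 142, and cells with mitotic but few S-phase genes 12 of 97 and 7 of 142; the ratios of shares were 1.85 (0.746 to 5.22) and 0.398 (0.133 to 1.10), so neither was separable from 1 at this number of cells. The thinned counts were too small to compare, with 1 and 2 cells in the first set.

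Of 18 other S-phase genes of a longer list, 8 were higher in plasma-cell-like cells and none lower, among them Uhrf1, which copies DNA methylation, Clspn, of the replication checkpoint, and Pola1, the primase polymerase. Of 36 other mitotic and growth genes 11 were higher, including Tuba1b, Smc2 and Prc1. How many genes of these longer lists were measured only through 12 h is not given, so both counts are a description. Stmn1, Hmgb2 and H2afx were higher by 2.46-fold (1.65 to 3.80), 1.64-fold (1.41 to 1.92) and 3.42-fold (2.26 to 5.35). The 9 plasma cell markers summed to 34424 and 33666 CPM. The 11 B cell markers summed to 1638 and 2022 CPM and the 12 monocyte markers to 1442 and 688 CPM; their part in the result was not tested.

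In cDC-like cells, conventional dendritic cells by their markers, the direction was the reverse. The S-phase sum was 449 CPM at 0 h (306 UMIs, 123 cells) and 230 CPM at 12 h (605 UMIs, 457 cells), a ratio of 0.511 (0.445 to 0.589). Of 12 S-phase genes 6 were lower and none higher, where 5.73% of the 7591 genes measured were lower and 3.7% higher. Mcm6 had 45.5 and 16.7 CPM, 0.367-fold (0.227 to 0.602), Mcm4 61.6 and 23.9 CPM, 0.388-fold (0.259 to 0.588), and Mcm3 63.1 and 25.4 CPM, 0.403-fold (0.271 to 0.606). Tk1, Tyms and Pclaf were at 0.353-fold, 0.478-fold and 0.484-fold. Cells with 3 or more S-phase genes were 19 of 123 (15.4%) and 30 of 457 (6.56%), a ratio of 0.425 (0.231 to 0.799), and 0.323 (0.133 to 0.795) at 3000 UMIs per cell. At 1000 UMIs per cell 3 of 121 and 1 of 455 such cells were left, a ratio of 0.0886 (0.00169 to 1.10), too few to compare.

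Mitotic genes of cDC-like cells rested on few cells: 7 of 123 (5.69%) had 3 or more at 0 h and 15 of 457 (3.28%) at 12 h. Mki67, Top2a, Cdca3 and Cdca8 were lower, at 0.388-fold, 0.371-fold, 0.378-fold and 0.302-fold, and Tpx2 was higher, with 1 UMI in 1 cell and 30 UMIs in 16 cells (7.76-fold, 1.29 to 317), which becomes 2.13-fold once the top cell of each library is left out. The mitotic sum was 261 and 165 CPM, a ratio of 0.631 (0.529 to 0.755). It was 0.845 without the 1 cell with most mitotic UMIs in each library and 1.40 when cell cycle genes were kept for clustering, where 4 cells of each time went to the cycling cluster, so its direction is not stable. The S-phase ratio under that clustering was 0.696.

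Stmn1 was the chromatin and microtubule gene with the lowest ratio in cDC-like cells, with 95 UMIs (139 CPM) and 106 UMIs (40.2 CPM), 0.289-fold (0.217 to 0.385), and H2afx was at 0.666-fold (0.513 to 0.870). Of 23 other S-phase genes 8 were lower and none higher, among them Rad51ap1 and Clspn, and of 31 other mitotic and growth genes 7 were lower and 1 higher. Markers of other cells moved too: the 8 haematopoietic progenitor markers summed to 243 CPM at 0 h and 110 CPM at 12 h, the 8 basophil or mast cell markers (7 and 5 of them at 0) to 117 and 1401 CPM, and the 13 conventional dendritic cell markers to 8488 and 7403 CPM. In the cDC-like cells with 3 or more mitotic genes the dendritic markers stood at 2020 CPM (7 cells) and 5668 CPM (15 cells), below the whole class. Their part in the result was not tested.

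The remaining classes had few mitotic cells. In pDC-like cells, plasmacytoid dendritic cells by their markers, 1 of 274 and 2 of 365 cells had 3 or more mitotic genes. Their mitotic sum was 56.0 and 49.6 CPM (0.886, 0.618 to 1.28). Tyms and Pclaf were the 2 of 9 S-phase genes that were higher (1.64% of all genes measured were higher and 3.78% lower). Tyms went from 5 UMIs to 21 UMIs in 11 cells, and Pclaf from 2 UMIs to 26 UMIs in 5 cells. Both had fewer UMIs at 0 h than the rule asks of the sums. They were measured only through 12 h, so the count is a description. In IL-22-negative monocyte-like cells H2afx, the histone variant marked at DNA breaks, was higher, with 14 and 129 UMIs, 2.01-fold (1.15 to 3.77), and no other member passed (6.28% of all genes measured were higher and 6.31% lower). H2afx too was measured there only through 12 h. Basophil-like cells had 0 of 39 and 3 of 26 cells with 3 or more mitotic genes.

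The chromatin and microtubule genes differed in how they followed the mitotic genes over the classes. H2afz stood at 1685 CPM in monocyte-like cells at 0 h and 1478 CPM at 12 h, against 807 and 779 CPM in T-cell-like and 338 and 432 CPM in B-cell-like cells, although monocyte-like cells had almost no mitotic genes. Hmgb2 stood at 591 and 708 CPM in T-cell-like cells, 405 and 400 CPM in monocyte-like cells and 320 and 338 CPM in B-cell-like cells. Stmn1 was low in such cells, with 65.6 and 78.7 CPM in T-cell-like cells and 1.61 and 3.15 CPM in monocyte-like cells. None of the 4 passed between the times in T-cell-like cells, with ratios from 0.965 (H2afz) to 1.20 (Stmn1).

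The IL-22-positive libraries held few cells with mitotic genes. At 0 h, 4 of 288 cells (1.39%, interval 0.380% to 3.52%) had 3 or more, 1 each in the T-cell-like, B-cell-like, plasma-cell-like and macrophage-like classes. At 12 h there were 0 of 1348, which allows a share of up to 0.223%. The mitotic sum was 211 CPM at 0 h and 34.9 CPM at 12 h over all cells, and the 4 cells held 78.2% of it at 0 h. In T-cell-like cells 110 of 118 mitotic UMIs lay in 1 cell, and in B-cell-like cells 61 of 63. Monocyte-like cells made up 133 of the 288 and 1032 of the 1348 cells, so the libraries differ in cell type beside time.

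Monocyte-like cells were the 1 class with over 50 cells in all 4 libraries. In IL-22-positive ones, Pcna was lower at 12 h, with 64.8 and 34.5 CPM, 0.531-fold (0.366 to 0.789), as 1 of 4 S-phase genes measured, where 10.5% of all genes measured were lower and 6.08% higher. Against the IL-22-negative monocyte-like cells of 12 h, 3 of 7 S-phase genes (Mcm3, Mcm4 and Pclaf) and H2afx were lower, where 11.8% of all genes were lower and 7.06% higher. Pclaf had under 20 UMIs in the IL-22-positive ones and was measured only through the IL-22-negative ones, so the count is a description. At 0 h Pcna was higher in the IL-22-positive ones, 64.8 against 35.3 CPM (1.83-fold, 1.05 to 3.27), where 10.2% of all genes were higher and 7.04% lower. None of the mitotic genes passed in these comparisons, in which at most 3 could be measured.

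Beyond the members, genes of 3 longer cell cycle lists were compared between times in T-cell-like cells. Of 68 other mitotic and growth genes 7 were higher and none lower: Hmmr, Kif4, Kif22, Spc25, Sgo1, Melk and Cdkn3, with ratios from 1.65 (Cdkn3) to 2.84 (Melk). How many of the 7 were measured only through 12 h is not given, so this count is a description. Of 33 other S-phase genes none passed. Of 41 regulators 1 was higher and 2 were lower, close to the shares of all genes measured (2.07% and 4.06%), so these counts are no result about the regulators. E2f2, an activator of S-phase genes, was higher with 23 and 68 UMIs (1.94-fold, 1.19 to 3.26), and Tob1, an antiproliferative factor, and Cdkn2a, which encodes the inhibitor p16, were lower at 0.611-fold (0.496 to 0.753) and 0.375-fold (0.205 to 0.667).

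The same lists were compared between the 182 T-cell-like cells of the IL-22-negative libraries with 3 or more mitotic genes and the 5135 with none. The mitotic members chose these cells, and the sets differ in depth, so the values are a description; of the 10512 genes measured 12.2% were higher and 12.7% lower. All 12 S-phase genes were higher, from Pcna, at 3.11-fold, to Pclaf, at 300-fold (904 against 3.02 CPM). Of 33 other S-phase genes 29 were higher, and of 66 other mitotic and growth genes 65. Of 41 regulators 23 were higher and 6 lower. Higher were Fbxo5, an inhibitor of the anaphase-promoting complex (84.0 against 0.928 CPM), geminin (Gmnn, at 8.59-fold), which blocks a new round of replication, and E2f1, at 11.6-fold. The 6 lower ones were Btg1 (132 against 486 CPM), Btg2 (191 against 574 CPM) and Tob1, antiproliferative factors, Cdkn1b, which encodes the CDK inhibitor p27, Ccnd2, cyclin D2, and Myc.

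Among genes outside the lists, those with the highest ratio in the T-cell-like cells with 3 or more mitotic genes were Ska1, Pimreg, Mxd3, Shcbp1, Aspm, Cenpm, Cenpp, Cep55, Cenph and Chaf1a. Ska1, of the kinetochore, had 74.5 against 0.0773 CPM, and Aspm, a spindle pole protein, 84.8 against 0.850 CPM. Chaf1a, the chromatin assembly factor that loads histones behind the replication fork, had 51.5 against 1.39 CPM. The lowest were Snhg17, Dbp, Tceal3, E130102H24Rik and Tmem135, each with 1 UMI in the 182 cells; Dbp, an output gene of the circadian clock, had 0.792 against 13.9 CPM.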

How the data were processed

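Raw UMI counts per gene and cell of 4 droplet libraries were used as the authors deposited them. The matrices were written by Cell Ranger 4.0.0 per the file headers; the submitters' processing notes name Cell Ranger 3.0.1 and mm10. Cells with 200 or more genes and under 10% mitochondrial UMIs were kept, which left out 254, 132, 11 and 28 barcodes. Scrublet calls (299, 464, 1 and 2) were removed; for the IL-22-negative 0 h library its own threshold made no call and that of 12 h was used, a decision taken once that outcome was known. Cells of all libraries were clustered with scanpy 1.11.5 (Python 3.11.15; 2000 variable genes without cell cycle, histone and antigen receptor genes, 30 components, 15 neighbours, Leiden resolution 1) and named from marker lists. The naming rule was refined after the clusters were seen: clusters with few UMIs were kept apart, and clusters led by 2 lists stayed unnamed. Classes were compared where both libraries held 50 or more cells.

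UMIs were summed per class and library. Sums have exact Poisson intervals, shares exact binomial (Clopper-Pearson) intervals and ratios exact conditional intervals (scipy 1.17.1), all at 95% and for counting error only. The call rule was checked on simulated Poisson sums, drawn independently for each gene. Such sums hold no gathering of UMIs in few cells, so the check does not cover genes with that trait. Depth was compared by thinning every cell to 1000 UMIs and leaving out shallower ones. A count of 0 was given the limit of 3 counts. Named genes are all 39 members, examples from the 3 longer cell cycle lists, and the 10 highest and 5 lowest ratios among the 6454 other genes with 50 or more UMIs in 10 or more cells, between T-cell-like cells with 3 or more mitotic genes and those with none. The members and lists were chosen with earlier results of these data known. The alternatives tried concern scaling, depth, single cells, doublets, the cell filter, the clustering and the call rule.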

Additional observations from a re-analysis of the deposited data

Results flagged for a closer look

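The S-phase sum moved in opposite directions in 2 classes of the IL-22-negative libraries. From 0 h to 12 h its ratio was 2.76 (interval 2.33 to 3.28) in plasma-cell-like cells and 0.511 (0.445 to 0.589) in cDC-like cells. The mitotic sum likewise had a ratio of 1.43 (1.36 to 1.5) in T-cell-like cells and 0.631 (0.529 to 0.755) in cDC-like cells, but the latter was 0.845 without the cell with most mitotic UMIs in each library and 1.40 with cell cycle genes kept for clustering, so its direction is not stable. The difference between the classes was not tested, since each time is 1 library.

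Cells outside the comparisons also held mitotic genes at 12 h. Among the barcodes removed as doublets from the IL-22-negative library, 1.94% (9 of 464) had 3 or more, against 2.46% of the cells kept. Among the T-cell-like cells with few UMIs, 2.0% (8 of 401, interval 0.865% to 3.89%) had 3 or more, beside 1.41% (19 of 1350, 0.849% to 2.19%) at 0 h, and among unnamed cells 0.877% (1 of 114, 0.0222% to 4.79%).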

How the results depend on the processing

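The class results were computed again under the alternatives, changing 1 choice at a time, and those of clusters 15 and 4 under the 5 alternatives that keep the clusters. The T-cell-like mitotic ratio stayed between 1.43 and 1.5, the plasma-cell-like S-phase ratio between 2.73 and 2.89, the cDC-like S-phase ratio between 0.469 and 0.696, and the mitotic ratios of clusters 15 and 4 between 3.63 and 4.01 and between 2.11 and 2.47 under 4 of these 5. With cell cycle genes kept for clustering, 4 results reversed: the NK-or-ILC1-like mitotic ratio was 0.886, the B-cell-like S-phase and mitotic ratios 0.881 and 0.809, and the cDC-like mitotic ratio 1.40. Under the same clustering the T-cell-like S-phase ratio was 1.07 and the shares of T-cell-like cells with 3 or more mitotic genes 2.92% and 4.40%. The NK-or-ILC1-like S-phase ratio was 0.834, its shares 0.725% and 0.710%, and its members 0 higher and 3 lower. B-cell-like members were 0 higher and 1 lower, with a share of 0.264% at 12 h, and cDC-like members 2 higher and 5 lower, with an S-phase ratio of 0.696. Leaving only the cells of the cycling cluster out of the original classes, an alternative chosen after seeing the data, gave S-phase and mitotic ratios of 0.806 and 0.828 in NK-or-ILC1-like, 0.883 and 0.812 in B-cell-like, and 0.669 and 1.37 in cDC-like cells, and mitotic ratios of 1.02 in cluster 15 and 0.781 in cluster 4. It was not run for the whole T-cell-like class. Of the T-cell-like cells with 3 or more mitotic genes, 46 of 56 at 0 h and 109 of 126 at 12 h were in that cluster. The cluster was itself named T-cell-like, so keeping cell cycle genes did not take these cells out of the class. The range of the T-cell-like mitotic ratio therefore does not cover their removal.

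Without the cell with most UMIs in each library, the mitotic ratios were 1.49 in NK-or-ILC1-like cells, 1.53 in plasma-cell-like cells, 0.845 in cDC-like cells and 2.47 in cluster 4. With doublet calls kept, the B-cell-like S-phase and mitotic ratios were 1.03 and 1.18, with 2 members higher, and 0 cDC-like members were higher. In cells with 500 or more genes and under 5% mitochondrial UMIs, the NK-or-ILC1-like mitotic ratio was 1.22, with 3 members higher, and 4 B-cell-like members were higher. At Leiden resolution 2 the NK-or-ILC1-like S-phase ratio was 0.839, with 2 members lower, and 3 B-cell-like members were higher. With clusters of few UMIs joined to their class, an alternative chosen after seeing the data, the T-cell-like S-phase ratio was 0.95.

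Past 2-fold, 1 T-cell-like, 3 NK-or-ILC1-like and 2 B-cell-like members were higher. By 1.5-fold alone, 8 NK-or-ILC1-like members were higher and 2 lower, 13 B-cell-like members were higher and 2 cDC-like members were higher. With 50 or more UMIs, 0 cDC-like members were higher.

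The share of cells with mitotic genes depends on depth and on the number of genes asked for. With 2 or more genes the shares at 0 h and 12 h were 4.43% and 4.68% in T-cell-like, 3.12% and 3.03% in NK-or-ILC1-like, and 2.18% and 2.22% in B-cell-like cells. At 1000 UMIs per cell they were 1.12% and 2.17% in T-cell-like, 7.53% and 4.96% in plasma-cell-like and 0.826% and 0.879% in cDC-like cells, 1.52% in NK-or-ILC1-like cells at 12 h and 0.0988% in B-cell-like cells at 0 h. At 3000 UMIs, chosen after seeing the data and leaving out more cells, they were 5.49% and 9.67% in T-cell-like, 9.65% and 11.8% in NK-or-ILC1-like, 4.0% and 6.32% in B-cell-like, and 1.68% and 1.83% in cDC-like cells, and 11.5% in plasma-cell-like cells at 0 h. Except where stated above, the cause was not tested.

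No paired analysis was possible because each group is 1 library. Differences between the libraries therefore include those between mice, sorts and preparations, which cannot be told apart from time. Classes with few cells with mitotic genes, such as cDC-like and plasma-cell-like, rest on 7 to 26 cells per library. Genes under 20 UMIs in the sums could not be compared, and their absence from a count says nothing about them.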
